A study of Mus musculus with 10 samples.

Results

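The dental mesenchyme is the neural crest-derived tissue beneath and around the tooth epithelium, and a small set of transcription factors is known to give it its ability to make a tooth. Of these, 7 were followed from the bud to the cap stage of the mouse first molar, namely *Msx1*, *Msx2*, *Pax9*, *Barx1*, *Lhx6*, *Lhx8* and *Osr2*. They were picked by name as known regulators, with earlier results of these data already known, and they are 7 of the 27528 genes in the table. All 7 were measured on all 10 arrays. RNA came from whole first molar tooth germs of wild type NMRI mice, an outbred laboratory stock, at the embryonic days E13.5 (bud stage) and E14.5 (cap stage). Each gene has 1 value per Affymetrix Mouse Exon array, a normalized signal summarised over its probes and read here on the log2 scale. Each array held RNA pooled from 12 to 18 germs, with 5 arrays for each stage. No mutant or treated group was included. Epithelium and mesenchyme were not separated, so these arrays cannot show in which of the tissues a gene was expressed. Nor can a fall in signal tell fewer expressing cells from less RNA per cell.

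All 7 factors are nuclear proteins that bind DNA. *Msx1* and *Msx2* are related homeobox genes. *Msx1* acts in the mesenchyme in a loop with the signal *Bmp4*, whereas *Msx2* is also known from the enamel knot, the epithelial signalling centre of the cap. *Pax9* is a paired box gene that is needed, as *Msx1* is, for the bud to become a cap. *Barx1* is a homeobox gene that marks the mesenchyme of the future molars. *Lhx6* and *Lhx8* are LIM homeobox genes of the oral mesenchyme that can stand in for each other. *Osr2* encodes a zinc finger factor that limits tooth formation to a single row. The study places *Msx1* and *Pax9* among the genes whose loss arrests the tooth, and *Msx2* and *Barx1* among those whose loss alters its shape. It lists *Lhx6* and *Lhx8* among genes tested by joint loss with a partner. *Osr2* is in none of these lists.

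The sequence before the start of transcription is shown for 4 of the genes because the related *Msx1* and *Msx2* moved in opposite directions, while *Lhx8* and *Pax9* had the largest falls of the set. Each is a RefSeq sequence of the build GRCm38.p6, with 250 bases before the start and 50 after it, written 5′ to 3′ on the strand of the gene. They lie at chr5:37824536-37824835 (minus strand, *Msx1*), chr13:53472731-53473030 (minus strand, *Msx2*), chr12:56695221-56695520 (plus strand, *Pax9*) and chr3:154330511-154330810 (minus strand, *Lhx8*). Capitals mark the letters CCAAT (the CCAAT box) and TAATTA (a core recognised by many homeodomains), searched on both strands. The letters TATAAA were searched as well.
Msx1: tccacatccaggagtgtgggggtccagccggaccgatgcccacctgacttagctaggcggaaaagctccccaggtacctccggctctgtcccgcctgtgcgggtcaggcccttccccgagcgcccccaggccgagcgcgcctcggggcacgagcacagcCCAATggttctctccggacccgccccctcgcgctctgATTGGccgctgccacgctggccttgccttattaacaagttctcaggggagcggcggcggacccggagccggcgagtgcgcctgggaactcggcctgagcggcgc
Msx2: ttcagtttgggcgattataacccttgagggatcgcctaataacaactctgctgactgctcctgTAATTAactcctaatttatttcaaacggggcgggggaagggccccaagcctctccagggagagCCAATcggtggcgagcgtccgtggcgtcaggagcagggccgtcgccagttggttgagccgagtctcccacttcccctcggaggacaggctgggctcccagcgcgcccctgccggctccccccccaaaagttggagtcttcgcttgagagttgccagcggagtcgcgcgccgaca
Pax9: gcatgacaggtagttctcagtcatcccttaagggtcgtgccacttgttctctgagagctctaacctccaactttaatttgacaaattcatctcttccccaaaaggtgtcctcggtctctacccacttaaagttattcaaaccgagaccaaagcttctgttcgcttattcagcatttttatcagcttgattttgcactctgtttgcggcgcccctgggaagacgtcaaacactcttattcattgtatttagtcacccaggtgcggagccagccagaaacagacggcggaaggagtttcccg
Lhx8: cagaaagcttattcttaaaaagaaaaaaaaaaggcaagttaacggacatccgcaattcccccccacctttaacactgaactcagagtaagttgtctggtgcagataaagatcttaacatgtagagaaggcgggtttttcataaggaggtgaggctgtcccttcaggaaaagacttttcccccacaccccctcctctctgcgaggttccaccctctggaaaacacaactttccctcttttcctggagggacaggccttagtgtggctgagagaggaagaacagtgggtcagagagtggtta

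RefSeq promoters were at hand for 6 of the 7 genes, with 3 starts for *Lhx6* and 1 for each of the others. *Osr2* had no entry. *Msx1* held CCAAT 91 bases and, on the other strand, 54 bases before its start. *Msx2* held CCAAT 124 bases and TAATTA 187 bases before its start, and was the only one of the 6 genes with the latter. The CCAAT box was also found at 2 of the 3 starts of *Lhx6*. Neither motif occurred in the windows of *Pax9*, *Lhx8* and *Barx1*. TATAAA occurred only at 1 start of *Lhx6*, on the opposite strand from position 3 after the start. Of all 32851 RefSeq promoters of this length, 37.4% held the CCAAT box, 5.29% the homeodomain core and 13.6% the third motif, in either orientation. Guanine and cytosine made up 84.7% of the *Barx1* window (chr13:48662786-48663085, plus strand), 70.0% of that of *Msx1* and 61.0% of that of *Msx2*, but 47.0% of those of *Pax9* and *Lhx8*. The median of all promoters was 52.7%. The falling genes with an entry had no motif of these 3 in common, and they spanned both GC-rich and GC-poor windows. At the shares given for all promoters, a motif common to all of them was unlikely beforehand. A link between these sequences and the changes was not tested.

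Between the bud and the cap 6 of the 7 factors fell and *Msx2* rose. All 7 passed an adjusted p of 0.05 (limma with Benjamini-Hochberg adjustment over all genes), where 7.85% of all genes did. The 6 falls stand against 3.49% of all genes called lower at E14.5, and the single rise against 4.36% called higher. In none of the 7 did the arrays of the stages overlap, whereas 8.84% of all genes showed no overlap. Genes without overlap and lower at E14.5 were 4.01% of all genes, and those higher were 4.82%. The falls ranged from 1.96-fold (*Barx1*) to 2.73-fold (*Lhx8*) when the deposited values are read as log2 signals. Because probes differ from gene to gene, levels are read within a gene and only changes are set against each other. Changes in signal can depend on the probes too, so differences between them are differences of signal. *Msx2* averaged 5.11 at E13.5, within the range of the array medians (5.06 to 5.22), whereas the 6 falling factors averaged 8.12 to 8.97.

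**Figure D1:**
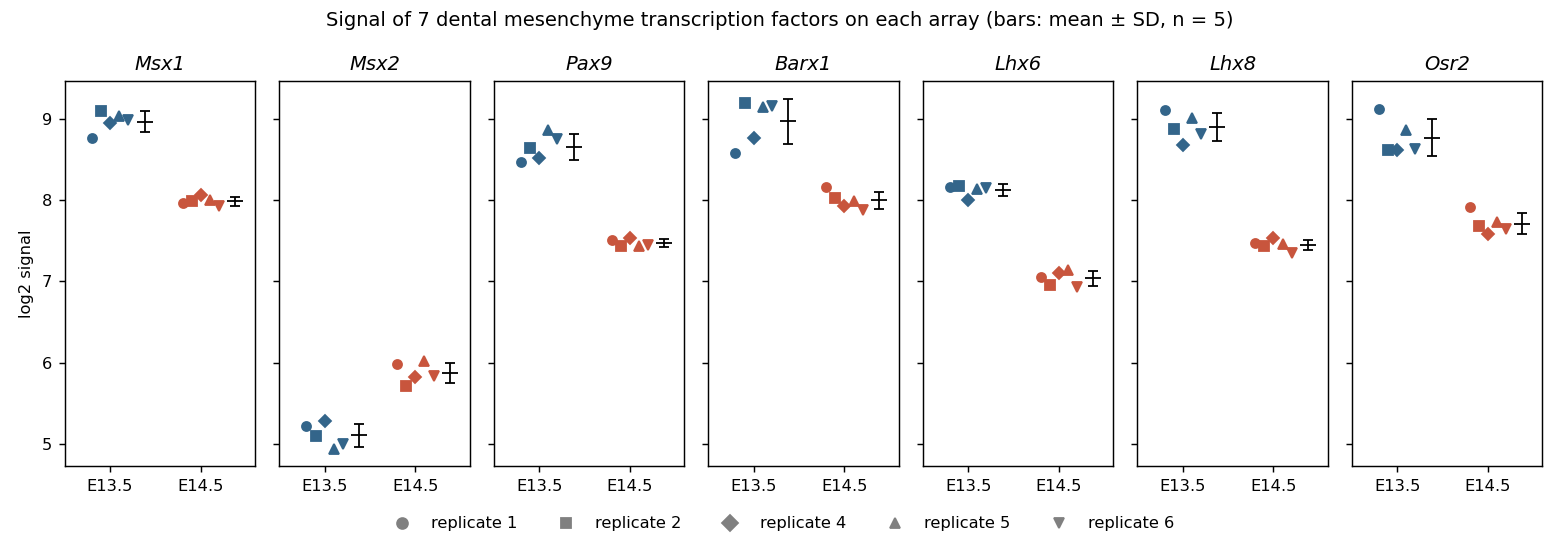
Signal of each of the 7 factors on each array (vertical axis, log2 signal) at E13.5 (blue) and E14.5 (red), with a symbol for each replicate number and bars for the mean ± SD of 5 arrays. *Msx1*, *Pax9*, *Barx1*, *Lhx6*, *Lhx8* and *Osr2* are lower on every E14.5 array than on any E13.5 array, and *Msx2* is higher on every E14.5 array.

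*Msx1* (ENSMUSG00000048450) and *Pax9* (ENSMUSG00000001497) are the factors whose loss stops the tooth at the bud. *Msx1* read 8.76, 9.09, 8.94, 9.04 and 8.98 on E13.5 replicates 1, 2, 4, 5 and 6, and 7.96, 7.98, 8.07, 8.00 and 7.92 on the E14.5 replicates of the same numbers. The lowest bud array lay 0.69 above the highest cap array, and the cap arrays were the tighter group. The change was -0.98 ± 0.07 (SE, n = 5 arrays per stage, limma adjusted p = 1.02e-05), or 1.97-fold lower. *Pax9* read 8.47, 8.64, 8.52, 8.86 and 8.75 at E13.5, and 7.50, 7.43, 7.53, 7.44 and 7.45 at E14.5, in the same order of replicates. Its stages were 0.94 apart at their nearest, and the SD fell from 0.16 to 0.05. *Pax9* changed by -1.18 ± 0.08 (SE, n = 5, limma adjusted p = 7.37e-06), the largest change in this set after that of *Lhx8*.

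*Msx2* (ENSMUSG00000021469), the relative of *Msx1*, went the other way. It read 5.22, 5.10, 5.28, 4.94 and 4.99 at E13.5 and 5.98, 5.71, 5.83, 6.01 and 5.83 at E14.5, in the order of replicates 1, 2, 4, 5 and 6. Every cap array was above every bud array, by at least 0.44. The change was 0.77 ± 0.09 (SE, n = 5, limma adjusted p = 0.000195), or 1.70-fold higher. The difference between *Msx1* and *Msx2* on the same array changed by -1.75 ± 0.12 (SE) from bud to cap (exact two-sided permutation p = 0.00794, adjusted 0.0139 over 21 pairs of factors, n = 5). This p adds nothing to the single changes, as genes that move in opposite directions without overlap must reach the smallest p.

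*Barx1* (ENSMUSG00000021381), the factor of molar identity, was the most variable of the 7 at the bud stage. It read 8.57, 9.19, 8.76, 9.14 and 9.16 at E13.5, and 8.16, 8.02, 7.93, 7.98 and 7.88 at E14.5. Replicates 1 and 4 were the low arrays of the bud stage, and even these lay at least 0.41 above the cap arrays. The SD narrowed from 0.28 to 0.11 between the stages. *Barx1* changed by -0.97 ± 0.12 (SE, n = 5, limma adjusted p = 0.000438).

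The LIM homeobox genes *Lhx6* (ENSMUSG00000026890) and *Lhx8* (ENSMUSG00000096225) both fell, and by different amounts. *Lhx6* read 8.15, 8.17, 8.00, 8.14 and 8.14 at E13.5 and 7.05, 6.95, 7.10, 7.14 and 6.93 at E14.5. It was the only factor whose arrays were tighter at the bud (SD 0.07) than at the cap (SD 0.09). The change of *Lhx6* was -1.09 ± 0.07 (SE, n = 5, limma adjusted p = 3.3e-06). *Lhx8* read 9.11, 8.87, 8.68, 9.01 and 8.81 at E13.5 and 7.46, 7.44, 7.53, 7.45 and 7.35 at E14.5. Its stages were farther apart than those of any other factor here, with 1.15 between the nearest arrays. It changed by -1.45 ± 0.08 (SE, n = 5, limma adjusted p = 3.1e-06) and ranked 13 by size of fall among the 27528 genes. On the same array the difference between *Lhx6* and *Lhx8* changed by 0.36 ± 0.06 (SE, exact two-sided permutation p = 0.00794, adjusted 0.0139, n = 5), so that *Lhx8* fell further than its partner.

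*Osr2* (ENSMUSG00000022330), which limits the tooth row, read 9.12, 8.61, 8.61, 8.87 and 8.62 at E13.5 and 7.91, 7.68, 7.58, 7.73 and 7.65 at E14.5. Replicate 1 was the highest array at both stages, and the stages were 0.70 apart at their nearest. *Osr2* changed by -1.06 ± 0.11 (SE, n = 5, limma adjusted p = 0.000104), or 2.08-fold lower.

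Whether the signals of the factors changed by different amounts was asked with the difference between each of the 21 pairs on the same array. Of these, 12 passed an adjusted exact permutation p of 0.05. They include all 6 pairs with *Msx2*, which differed from the others by 1.74 to 2.22 log2 units. These 6 were bound to reach the smallest p, because *Msx2* rose and the others fell, each without overlap of the stages. Of the 15 pairs without *Msx2*, 6 passed, among them all 5 pairs of *Lhx8* with another falling factor. *Lhx8* fell further than *Pax9* by 0.27, than *Lhx6* by 0.36, than *Osr2* by 0.39, than *Msx1* by 0.47 and than *Barx1* by 0.48 (exact permutation p = 0.00794 and adjusted 0.0139 for each). Against *Pax9* the difference was 0.17 without E13.5 replicate 1 (adjusted exact permutation p = 0.0167). Among *Msx1*, *Pax9*, *Barx1*, *Lhx6* and *Osr2*, 1 of 10 pairs passed, as *Pax9* fell further than *Msx1* by 0.20 ± 0.06 (SE, exact permutation p = 0.00794, adjusted 0.0139). *Msx1* and *Barx1* were the closest, the first minus the second being -0.0048 ± 0.10 (SE, exact permutation p = 0.968). The call of *Pax9* against *Msx1* was lost without E14.5 replicate 2, 4, 5 or 6, and that of *Lhx8* against *Barx1* without E14.5 replicate 1 (adjusted exact permutation p = 0.0556 in each). The change of *Pax9* minus that of *Barx1* was -0.21 with all arrays and -0.26 without E13.5 replicate 2, and minus that of *Osr2* it was -0.12 with all arrays and -0.25 without E13.5 replicate 1 (adjusted exact permutation p = 0.0385 for both values with an array left out).

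**Figure D2:**
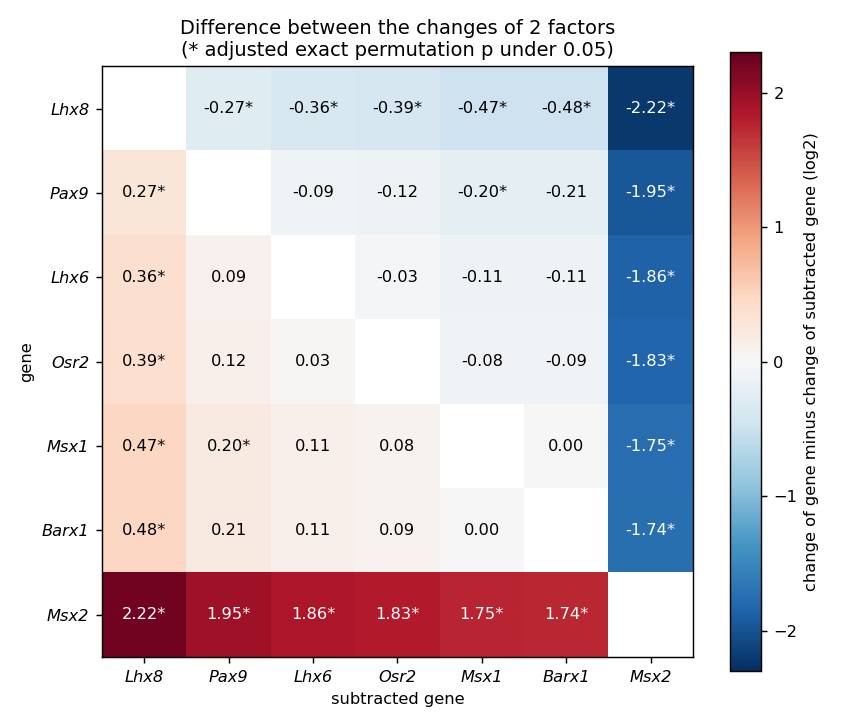
Difference between the change (E14.5 minus E13.5, log2 units) of the factor on the vertical axis and that of the factor on the horizontal axis, measured on the same arrays, with an asterisk where the adjusted exact permutation p was under 0.05. *Lhx8* differs from every other factor, by 0.27 to 0.48 from those that fell, and *Msx2* differs from all 6 others by at least 1.74.

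The arrays of a stage did not vary in the same way for all factors. On E13.5 replicate 1 *Osr2* and *Lhx8* were at their highest of the stage, 0.36 and 0.21 above the stage mean, while *Barx1*, *Msx1* and *Pax9* were at their lowest, 0.39, 0.20 and 0.18 below it. *Barx1* and *Osr2* thus stood at opposite ends of the bud stage on the same pool of germs. At E14.5 the largest deviation was 0.20 (*Osr2*, replicate 1), and *Msx1*, *Barx1*, *Lhx6* and *Lhx8* had their lowest array in replicate 6. The SD was smaller at E14.5 in 6 of the 7 factors, as it was in 53.3% of all genes. A list of 12 genes of the dental epithelium had its lowest median on E13.5 replicate 1 as well, at 7.29 against 7.62 to 7.81 on the other 4 bud arrays. The part of this in the values of the 7 factors was not tested. Without E13.5 replicate 1 all 7 factors were still called in the same direction.

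**Figure D3:**
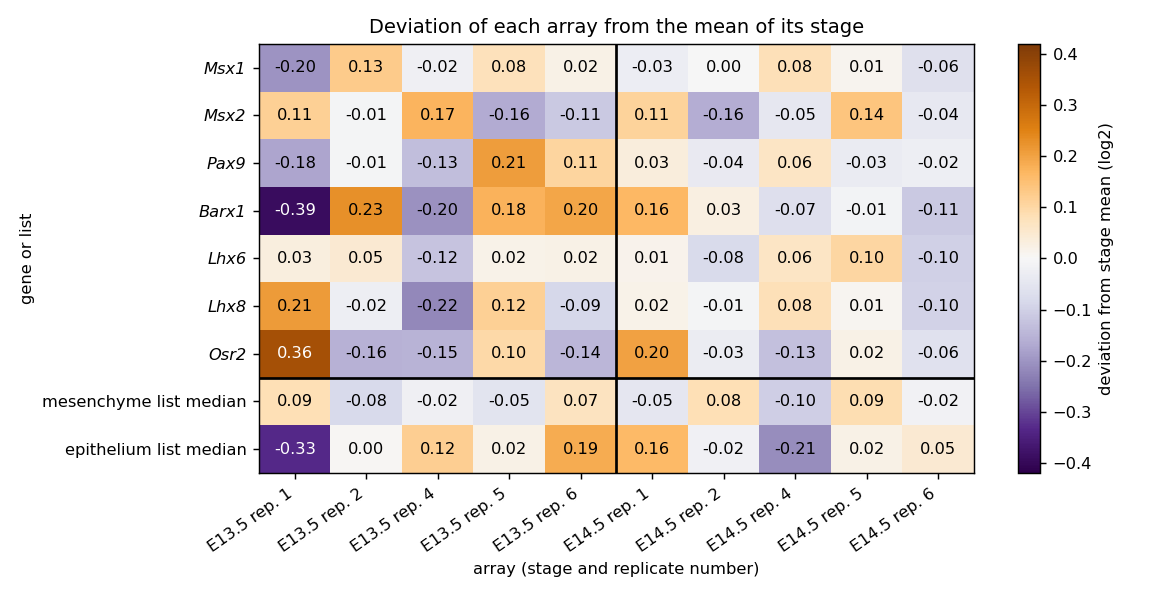
Deviation of each array (columns) from the mean of its stage, in log2 units, for the 7 factors and for the medians of 8 mesenchyme and 12 epithelium markers. On E13.5 replicate 1 *Barx1* is 0.39 below and *Osr2* 0.36 above the stage mean, and the epithelium median is 0.33 below it.

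The profiles nearest to each factor were sought among genes with a symbol in the study's lists, by the root mean square distance over the 10 arrays after centring each gene on its own mean. *Msx1*, *Pax9* and *Lhx6* were each among the 3 nearest genes of one another. *Msx1* and *Lhx6* lay 0.11 apart, *Lhx6* and *Pax9* 0.12 and *Msx1* and *Pax9* 0.13. *Epha7*, an ephrin receptor gene, was also near, at 0.11 from *Pax9* and 0.13 from *Lhx6*. The nearest to *Barx1* were *Msx1* (0.14), *Pax9* (0.16) and *Lhx6* (0.19), but *Barx1* was itself among the 3 nearest of *Msx1* only. *Osr2* and *Lhx8* were nearest to other genes. For *Osr2* these were *Pdgfra*, a growth factor receptor gene of mesenchymal cells, at 0.07, *Lama2*, which encodes a laminin chain, at 0.12, and *Ptprz1*, a receptor phosphatase gene, at 0.14. For *Lhx8* they were *Ptprz1* and *Pdgfra* at 0.19 and *Pax9* at 0.20. *Msx2* was nearest to *Wnt3* (0.12), *Wnt10b* (0.13) and the laminin gene *Lama3* (0.13). The difference between stages makes up much of each profile, and among all genes measured, between 1 and 27 lay nearer to a factor than each gene named here.

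The factors work with mesenchymal signals, receptors and other regulators, and 19 such partners were followed on the same arrays. Of these, 7 fell, 1 rose and 11 did not pass (limma, adjusted over all genes). Their median change was -0.14, against -1.06 for the 7 factors and -0.0145 for all genes. Among the signals, *Bmp4*, which *Msx1* maintains in the mesenchyme, fell by 0.56 ± 0.07 (SE, limma adjusted p = 0.000596), from 7.65 ± 0.04 to 7.09 ± 0.14 (SD, n = 5). *Inhba*, which encodes an activin subunit made by the mesenchyme, fell by 0.80 ± 0.11 (SE, limma adjusted p = 0.000804). Of the Fgf genes in this list, *Fgf10* fell by 0.78 ± 0.07 (SE, limma adjusted p = 2.72e-05) and *Fgf3* rose by 0.82 ± 0.12 (SE, limma adjusted p = 0.00109). In which tissue either gene changed cannot be told from whole germs. Both signals were low, as *Fgf3* averaged 4.35 at E13.5 and *Fgf10* 4.65 at E14.5, where array medians were 5.06 to 5.22. *Wnt5a* differed by -0.23 (limma adjusted p = 0.109) and did not pass. 

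*Msx1* and *Osr2* are known to act in opposite ways on the secreted Wnt antagonists *Dkk2* and *Sfrp2*. *Sfrp2* fell by 0.63 ± 0.07 (SE, limma adjusted p = 0.00014), while *Dkk2*, at 0.05 ± 0.14 (SE), missed the threshold (limma adjusted p = 0.933). *Tnc*, a matrix gene of condensing mesenchyme, fell by 0.52 ± 0.10 (SE, limma adjusted p = 0.0069), and the proteoglycan gene *Sdc1* differed by 0.11 (limma adjusted p = 0.511) and did not pass. Of the partner transcription factors *Dlx1* fell by 0.59 ± 0.06 (SE, limma adjusted p = 7.27e-05), and *Dlx2* differed by 0.08 (limma adjusted p = 0.773). *Gli3*, a transducer of Hedgehog signalling, fell by 0.34 (limma adjusted p = 0.0381), a call that was lost in 9 of 18 alternative fits. *Gli1*, *Gli2* and the Hedgehog receptor gene *Ptch1* did not pass, with values of -0.18, -0.0066 and -0.02. *Lef1*, which transduces Wnt signals, differed by 0.26 (limma adjusted p = 0.111) and *Runx2*, a factor of bone and tooth mesenchyme, by -0.09 (limma adjusted p = 0.784). The Bmp receptor gene *Bmpr1a* (-0.14) and the transducer gene *Smad4* (-0.07) did not pass either. The calls of *Bmp4*, *Inhba*, *Fgf10*, *Fgf3*, *Sfrp2*, *Tnc* and *Dlx1* were kept in every alternative fit that tested them.

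**Figure D4:**
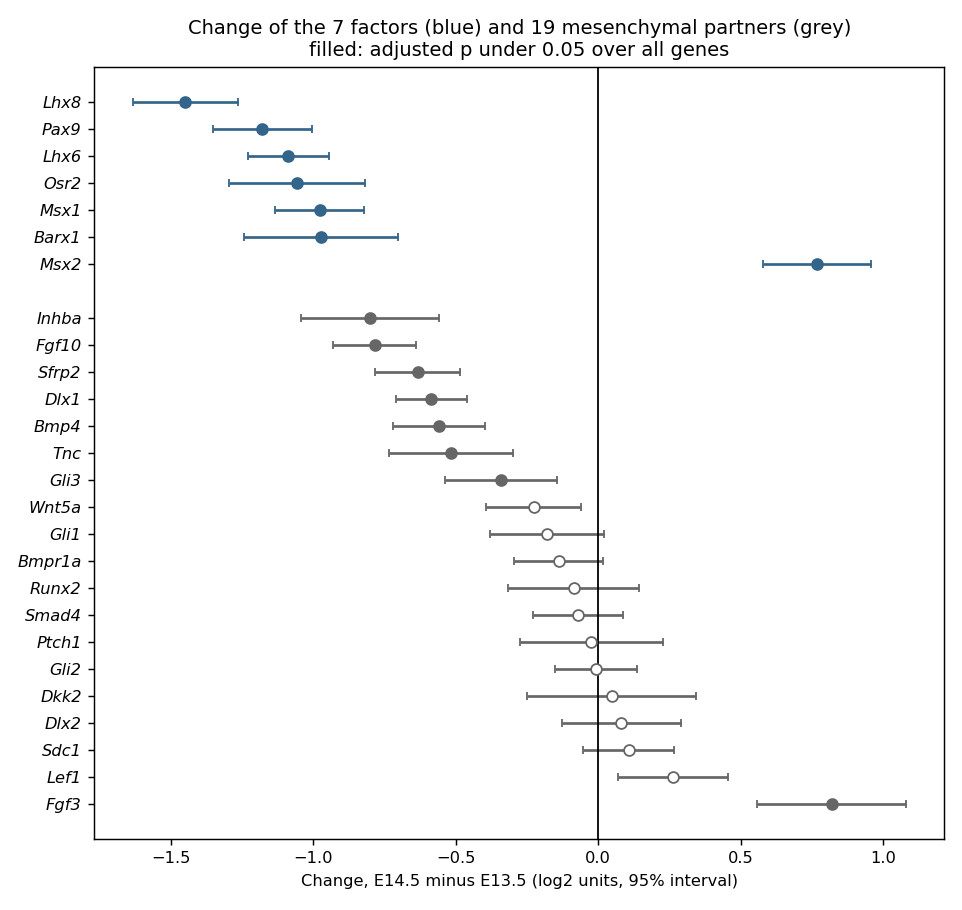
Change from E13.5 to E14.5 (horizontal axis, log2 units, with 95% intervals from limma) of the 7 factors (blue) and 19 mesenchymal partners (grey), filled where the adjusted p was under 0.05. The 6 falling factors lie between -0.97 and -1.45, and the partner with the largest fall, *Inhba*, lies at -0.80.

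The other transcription factors that the study tabulates as needed for the tooth number 15. Of these, 3 fell (*Dlx1*, *Gli3* and *Dlx6*, which fell by 0.79), 4 rose and 8 did not pass, with a median change of 0.16. The epithelial factor *Sp6* rose by 1.99 and *Trp63*, which maintains epithelial progenitors, by 0.42, as did the Dlx genes *Dlx3* (0.53) and *Dlx4* (0.31). The calls of *Dlx3* and *Dlx4* were kept in 14 of 18 and 10 of 17 alternative fits, and that of *Trp63* was lost with the replicate number as a block (limma adjusted p = 0.0572). The number that rose was 7 with quantile normalization, 8 with array quality weights, and 2 when replicate 5 of either stage or replicate 6 of the cap stage was left out. Signal genes of the dental epithelium were followed as a list of 9, of which 6 rose, none fell and 3 did not pass. *Shh* rose by 2.02, *Fgf4* by 1.59, *Wnt10a* by 1.46, *Wnt10b* by 0.88, *Bmp2* by 0.81 and *Eda*, whose receptor *Edar* is itself epithelial, by 0.42 (limma adjusted p between 8.17e-06 and 0.00186). *Msx2* rose with these, and the other 6 factors fell.

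General markers of mesenchyme moved in both directions. Of 8 such genes, 3 fell, 2 rose and 3 did not pass. *Pdgfra* fell by 1.13, *Lama2* fell by 1.02 and *Postn*, which encodes a matrix protein, fell by 0.60. The collagen gene *Col1a1* rose by 0.32 and the proteoglycan gene *Dcn* by 0.41, calls that were lost in 7 and 8 of 18 alternative fits, and *Fbln1* (0.28), *Fbln2* (-0.05) and *Mmp14* (0.04) did not pass. *Fbln1* passed in 8 of 18 alternative fits. The median of the 8 markers lay between 7.95 and 8.12 on the bud arrays and between 7.81 and 8.00 on the cap arrays, and its stage mean changed by -0.12. The median of the 7 factors on each array changed by -1.21 in its stage mean. Such medians mix levels of different genes, and for the factors the gene in the middle differed between arrays. The median of the single-gene changes was -0.0080 for the markers and -1.06 for the factors. Of the 12 epithelium markers 8 rose, none fell and 4 did not pass. Their median was 7.29 to 7.81 at E13.5 and 7.93 to 8.30 at E14.5, without overlap. The epithelial share of the germs and the stage cannot be told apart here.

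**Figure D5:**
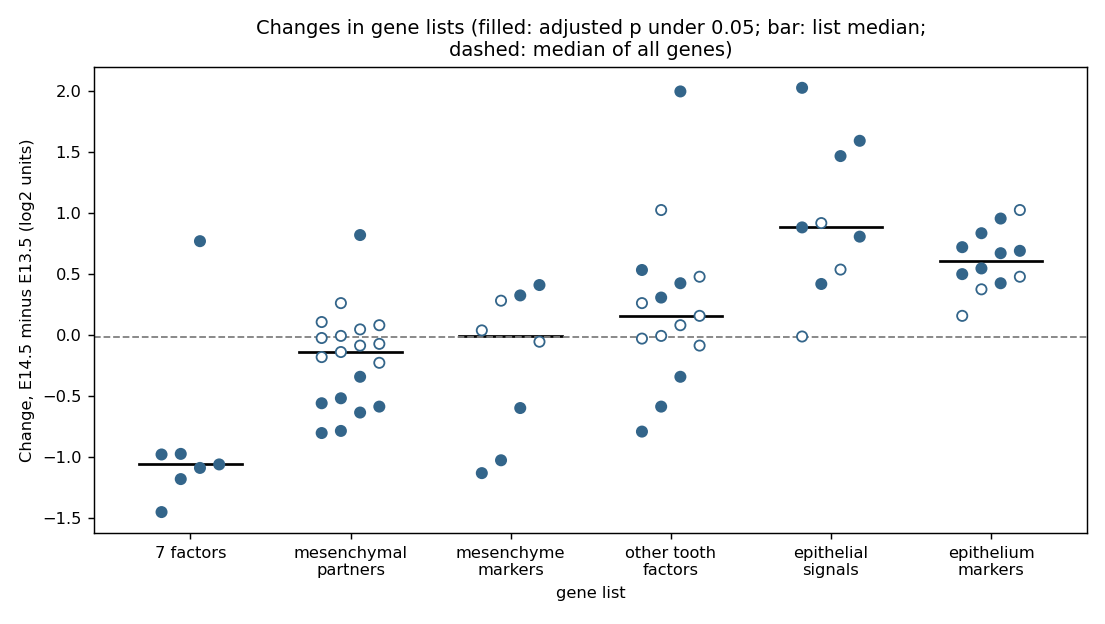
Change from E13.5 to E14.5 (vertical axis, log2 units) of each gene in 6 lists, filled where the limma adjusted p was under 0.05, with a bar for the list median and a dashed line for the median of all genes (-0.0145). The 7 factors have a median of -1.06, the 8 mesenchyme markers -0.0080 and the 12 epithelium markers 0.61, and genes may stand in more than 1 list.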

How the data were processed

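RNA of pooled first molar tooth germs was hybridised by the authors to Affymetrix Mouse Exon arrays, with 1 biotin-labelled sample per array. The authors normalized the signals with aroma.affymetrix and a Brainarray custom probe grouping by Ensembl gene, and deposited the result, here taken to be log2 signal since its range (1.30 to 12.8) and the array medians (5.06 to 5.22) are those of a log scale. The log base, background correction and summary model are not given in the sources used here, nor are detection calls or scan dates, so fold values rest on that reading and scan batches were not examined. Precision is limited by how many arrays there are.

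Groups came from the sample titles. The change from E13.5 to E14.5 was fitted over all 10 arrays without covariates in limma 3.58.1 under R 4.3.3, by lmFit and then eBayes, with two-sided p-values adjusted by Benjamini-Hochberg over 27528 genes and called under 0.05. On simulated data with 200 genes changed by 1 log2 unit, 91% were recovered with 6 calls among the unchanged genes. The simulated noise was independent between genes, so it does not show how deviations shared by many genes on an array affect the calls. Pairs of factors were compared on the same array with an exact two-sided permutation test over 252 splits, adjusted over 21 pairs, whose smallest p is 0.00794. The titles mark the replicates with Br numbers, and no label says which litters they came from, so p-values measure the spread between these pools. Other steps ran in Python 3.11.15 (pandas 2.3.3, numpy 2.4.6, scipy 1.17.1; plots by matplotlib 3.10.9). Symbols were paired with Ensembl IDs through the study's lists (399 genes, 395 in the table), and the ID of *Osr2* was supplied with the definition of the set. Promoters were matched by symbol.

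The 7 factors and the lists were chosen with earlier results of these data known. All 7 factors and 19 partners were named by rule, with the 3 nearest profiles for each factor, and of the other tooth factors and the epithelial signals those past the threshold. Markers of mesenchyme, epithelium, bone, endothelium and pericytes, and nerve and glia were followed as lists too. Alternatives were quantile normalization, centring, scaling, leaving out dim genes, a variance trend, array weights, a replicate block, array SD as covariate, and leaving out each array.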

Additional observations from a re-analysis of the deposited data

Results flagged for a closer look

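Each of the 7 factors and 19 partners was examined at each stage for a lone array, in 52 sets of 5 arrays, by Dixon's criterion on the widest end gap. There were 3 such sets, where 2.6 are met by chance. For *Lhx6* it was E13.5 replicate 4, at 8.00 when the rest of the stage lay between 8.14 and 8.17. For *Fgf10* it was E14.5 replicate 4, at 4.79 beside 4.59 to 4.63. For *Dlx1* it was E14.5 replicate 1, at 6.81 beside 6.71 to 6.73. None of these arrays crossed into the range of the other stage.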

How the results depend on the processing

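All 7 factors kept their direction and their call in each of the 18 alternative fits. With single arrays left out the change of *Lhx8* ranged from -1.50 to -1.40 and that of *Msx2* from 0.73 to 0.81. The highest limma adjusted p of any factor in any fit was 0.00394 (*Barx1*). Over all genes, array quality weights called 1939 higher and 1972 lower, and with single arrays left out the number lower ran from 612 (without E13.5 replicate 5) to 1350. It was 619 without E14.5 replicate 6. The cause was not tested. The number of pairs of factors called was 11 to 13 with single arrays left out. Of the pairs that had not passed, 4 changed sign. *Msx1* minus *Barx1* was 0.00319 with quantile normalization and ran from -0.0483 to 0.0434 with single arrays left out. So did *Msx1* minus *Osr2* (-0.0587 to 0.152), *Barx1* minus *Osr2* (-0.101 to 0.182) and *Lhx6* minus *Osr2* (-0.11 to 0.0229). Of the other lists, *Lef1* joined the risers among the partners in 5 of 18 fits, and the number of mesenchyme markers that rose went down to 0 with replicate 1 or 5 of the bud or 2 or 5 of the cap left out.

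Replicate numbers are shared between stages, but no label says what they mark. For want of such a label the numbers were not taken as pairs. Deviations of same-numbered arrays correlated at -0.08 to 0.51 across genes, and those of differently numbered arrays at -0.57 to 0.42. Each array was matched against the 5 arrays of the other stage, and 5 of 10 correlated best with their own number. That is more than random matching would give on average, but these correlations do not settle whether same-numbered arrays belong together. With the replicate number as a block, 2077 genes were called, all 7 factors among them, and *Lhx8* changed by -1.45, while the calls of *Dlx3*, *Dcn* and *Trp63* were lost. The block added *Fbln1*, *Bmp7*, *Fgf20*, *Foxi3* and *Jag2*, and 8 epithelial signals rose in place of 6. The pair differences had no such fit. Detection calls were not used here, so how far a signal lies above background is unknown.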

Other observations

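Among markers of other tissues that the dissected germs could hold, 2 of 4 bone genes rose, *Spp1* by 1.89 and *Alpl* by 0.74, while *Bglap* (0.11) and *Dmp1* (0.19) did not pass (limma, adjusted over all genes). Of 3 genes of endothelium and pericytes the pericyte gene *Cspg4* rose by 0.62, and the endothelial genes *Notch4* (-0.09) and *Dll4* (-0.16) did not pass. Of 5 genes of nerve and glia *Ptprz1* fell by 1.16 and *Slitrk6* fell by 0.63, and *Aqp4*, *Bcan* and *Cspg5* did not pass, with values between -0.06 and 0.05. Some of these genes are also expressed in tooth tissues, *Ptprz1* among them being near *Osr2* and *Lhx8* in profile. The part of such tissues in the values of the 7 factors was not tested.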
